A study of Homo sapiens with 16 samples.

Results

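The genes described here are those the authors' deposited table for the MDA231 line names under the Gene Ontology process ER to Golgi vesicle-mediated transport. They number 61, of 2646 genes named in that table and 2676 named in the series. They were chosen by their presence in that table row, so the row's own enrichment is a description and not a test. All 61 Ensembl identifiers had a gene symbol. The series profiled brain metastases of breast cancer lines by Flura-seq, in which cells able to convert 5-fluorocytosine put a labelled base into new RNA that an anti-BrdU antibody then recovers. MDA231 libraries came from a brain metastatic derivative of that line grown in mouse brain for 30 days, with 250 mg/kg 5-fluorocytosine given 12 hours before harvest. There were 4 input and 4 immunoprecipitated (IP) libraries for MDA231, and the same for the HCC1954 derivative, whose mice were handled alike. The brains hold both human tumour and mouse host cells, and the labels name a single derivative per line.

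The values analysed are a table of enriched processes per line and hold no level per library. No replicate spread, depth or direction can therefore be given for any gene. A gene that the MDA231 table names in a term was on the authors' MDA231 list. Neither its direction, IP above or below input, nor what placed it on the list is stated. Of the epithelial markers KRT8, KRT18, KRT19, EPCAM and CDH1, the MDA231 table named KRT8, KRT18 and CDH1. It named 0 of 4 astrocyte, 0 of 4 microglial and 0 of 3 neuronal markers, and PECAM1 among 3 endothelial ones. Being named or not is no level, so these names do not check the cell type.

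Proteins made on the endoplasmic reticulum (ER) leave it in vesicles coated by COPII, whose inner layer of SEC23 and SEC24 gathers cargo. Tethers such as USO1, TRAPP and COG catch vesicles at Golgi membranes, and SNARE proteins then drive fusion, after which NSF and its adaptor NAPA take the SNARE bundles apart. COPI-coated vesicles carry escaped ER proteins and cargo receptors back. Secretory cells rely on this route for matrix, growth factors and receptors.

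The 61 genes were part of 160 background genes that the table counts for this process, a share of 38.1% (95% exact Clopper-Pearson interval 30.6 to 46.1, counting error only). Over the whole background, 3626 of 16792 genes were on the list, or 21.6%, which would give 34.5 of 160. The fold in the authors' deposited table was 1.77 (interval computed here 1.35 to 2.26), with p = 3e-06 and Benjamini-adjusted p = 0.00243. By p it ranked 8 of 314 listed terms, of which 15 (4.78%) had an adjusted p under 0.05. These values selected the genes and support nothing further here.

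Among the vesicle coats, the inner COPII layer supplied most names. SEC23A and SEC23B, alternative forms of the protein that stimulates GTP hydrolysis by the SAR1 GTPase, were both in the row. So were SEC24A, SEC24B and SEC24C, alternative cargo adaptors. SEC24B (ENSG00000138802; GRCh38 chromosome 4, 109433772 to 109540896, plus strand) was in 6 other terms, the most of any COPII gene, followed by SEC23A in 5 and SEC24A and SEC24C in 4 each, with SEC23B in 2. PREB, the exchange factor that loads SAR1 at exit sites, was in 3 other terms, KLHL12, a ubiquitin ligase adaptor acting on the coat, in 1, and MIA2, a cargo factor of exit sites, in 0. The row thus held 8 of 20 genes of the COPII list. PDCD6, a calcium-binding regulator of the coat, was named only in other terms, and 11 were in no listed term, among them SAR1A, SAR1B, the fourth adaptor SEC24D and the outer coat genes SEC13, SEC31A and SEC31B. A gene in no term may still have been on the authors' list.

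COPI, the coat of the return route, had 3 of 9 genes in the row. They were ARCN1, COPE and COPG1, each a subunit of the coat and each in 3 other terms. All 3 were also in retrograde transport from Golgi to ER, while COPA, COPB1, COPB2, COPG2, COPZ1 and COPZ2 were in no listed term. For the other coat-linked lists, the row held 0 of 6 kinase and phosphatase genes. PPP6C and PPP6R1, the catalytic and a regulatory subunit of protein phosphatase 6, were instead the sole genes of COPII vesicle coating that were outside the row.

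Tethers differed by complex in how many genes were named. COG, an 8-subunit complex that receives vesicles recycling within the Golgi, had 7 of 8 genes in the row: COG1, COG2, COG3, COG4, COG5, COG6 and COG8. Only COG7 was in no listed term. COG3 (ENSG00000136152; chromosome 13, 45464898 to 45536630, plus strand) was in 6 other terms, COG1 and COG4 in 4, COG2 in 3, and COG5, COG6 and COG8 in 2. TRAPP, the exchange factor and tether for RAB1, had 2 of 16, TRAPPC2 in 2 other terms and TRAPPC2L in 1. The golgin list had 2 of 8, namely USO1 (p115), a long coiled-coil tether in 6 other terms, and its Golgi partner GOLGA2 (GM130) in 3. GOLGA5 and BLZF1 were named elsewhere. Of the NRZ tether at the ER, 0 of 3 were in the row and RINT1 was named elsewhere. Family sizes differ, and the table does not give which family genes its background held, so these counts are not shares of what could be listed.

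**Figure D1:**
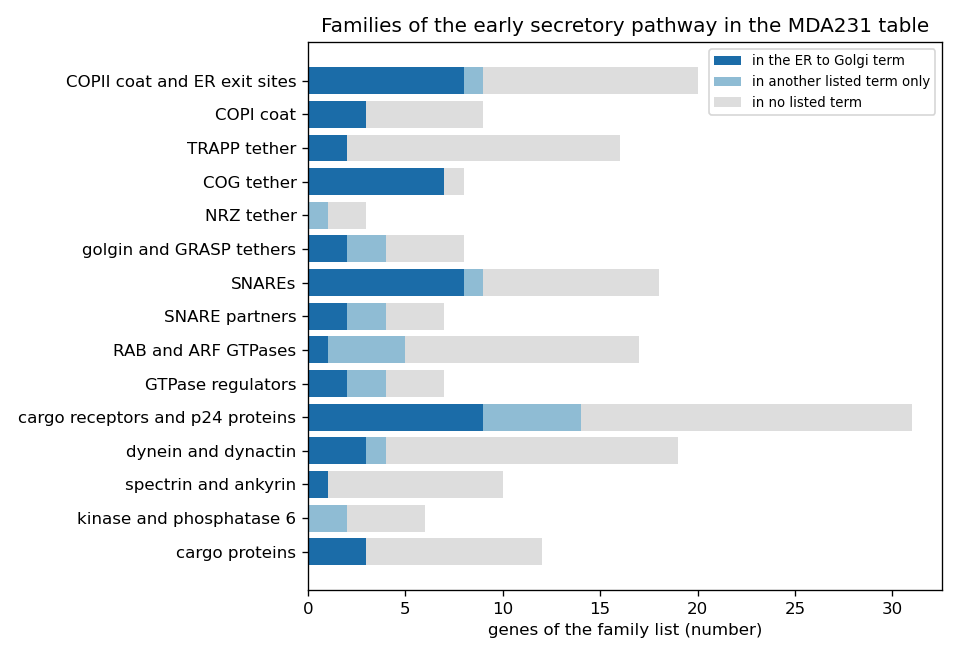
Number of genes (x axis) of each of 15 family lists (y axis) by where the MDA231 table names them: in the ER to Golgi term, only in another listed term, or in no listed term. The COG bar is almost filled by the ER to Golgi term, 7 of 8 genes, whereas TRAPP has 2 of 16.

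SNAREs came next, with 8 of 18 list genes in the row. STX5 (ENSG00000162236; chromosome 11, 62806897 to 62832088, minus strand), the syntaxin of the Golgi entry face, was in 10 other terms, the most of any of the 61. VTI1B was in 7, YKT6, a lipid-anchored SNARE, in 6, and VTI1A in 5. BET1 and BET1L, short SNAREs of the ER to Golgi and the intra-Golgi steps, were in 3 each, as was STX17, which also serves autophagosome fusion, and SEC22A was in 2. VAMP7, a SNARE of late endosomes outside the lists, was in 3. Other SNAREs of the route, GOSR1, GOSR2 and SEC22B, were in no listed term, and STX18, of the ER return route, was named only elsewhere. NSF, the ATPase that recycles SNAREs, was in 6 other terms and its adaptor NAPA in 5, making 2 of 7 SNARE partner genes. SCFD2 and VPS45 were named elsewhere.

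Few small GTPases were in the row. RAB2A, which acts between ER and Golgi, was the single member of a list of 17 and was in 3 other terms. ARF3, RAB2B, RAB6A and RAB10 were named in other terms, and RAB1A, RAB1B and ARF1 in none. The regulators ARFGAP2, which stimulates GTP hydrolysis by ARF1 on COPI vesicles, and TBC1D20, a GTPase-activating protein for RAB1, made 2 of 7. They were in 2 and 3 other terms. ARFGEF1 and ARFGEF2, exchange factors for ARF proteins, were named elsewhere.

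Cargo receptors and p24 proteins, which select cargo for the vesicles, had 9 of 31 genes in the row. TMED10 was in 5 other terms, TMED9 and LMAN2L in 4, BCAP31 in 3, and TMED3, TMED7 and YIF1A in 2, while ERGIC1 and YIF1B were in 0. A further 5 of the list, ERGIC3, TMED1, TMED4, TMED5 and YIPF5, were named only elsewhere, and the retrieval receptors KDELR1, KDELR2 and KDELR3 and the lectin LMAN1 in no listed term. Cargo proteins with 3 of 12 were FOLR1, the folate receptor, in 3 other terms, and CD55, a complement inhibitor, and SERPINA1, a protease inhibitor, in 1 each.

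Dynactin, the activator of the dynein motor that carries vesicles toward the Golgi, gave DCTN3 in 3 other terms and DCTN4 and DCTN5 in 1 each, which is 3 of 19 dynein and dynactin genes. DYNC1LI1 was named elsewhere. ANK3, an ankyrin that anchors membrane proteins to spectrin, was in 1 other term and the single gene of 10 on the spectrin and ankyrin list. The remaining 10 of the 61 were outside the 15 lists. They were the ER-shaping GTPase ATL2 (3 other terms), the microtubule-severing enzyme SPAST (5), the ER chaperone HYOU1 (2), SEC23IP, a partner of SEC23 (3), MPPE1, which remodels the glycolipid anchor of some cargo (1), and DYNC2LI1, a dynein chain (1), besides NRBP1 (2), TMEM115 (2), VAMP7 and the readthrough gene TMED7-TICAM2 (4).

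The other terms that name these genes were examined next. Of the 61, 58 (95.1%) were in at least 1 other listed term, against 60.4% of all 2646 named genes in at least 2 terms. That background holds many genes of small and large terms alike. Among 55 terms with at least 30 genes, the median share of genes also in another term was 90.4%, and 11 terms had a higher share than this one. The median gene here was in 3 other terms, which equals the median of those 55 terms, and over all named genes it was 1. The 3 genes with no other term were ERGIC1, MIA2 and YIF1B. In all, 50 of the other 313 terms named a member, 28 of them just 1.

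**Figure D2:**
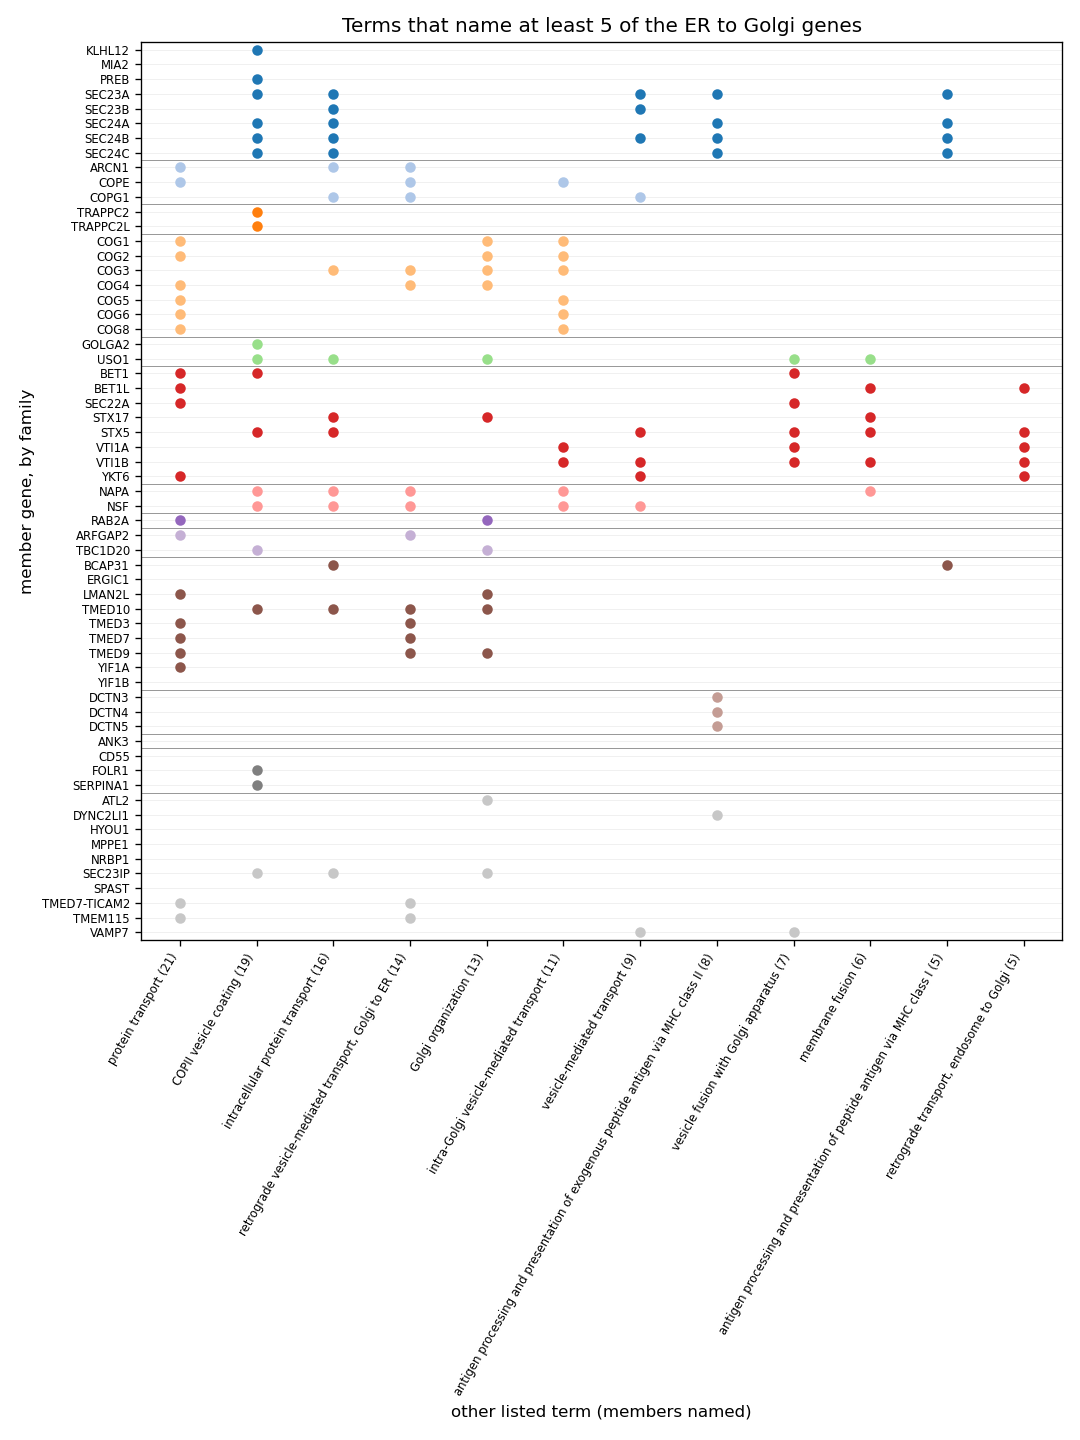
Each dot marks a member gene (y axis, grouped and coloured by family, genes outside the lists at the bottom) named in another MDA231 term (x axis, the 12 terms with at least 5 members, the number in brackets). COG genes cluster under protein transport, Golgi organization and intra-Golgi transport, and SEC23A and the 3 SEC24 genes under COPII coating and antigen presentation.

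Some terms were nearly contained in this one. Vesicle fusion with Golgi apparatus held 7 genes and all were members: BET1, SEC22A, STX5, USO1, VAMP7, VTI1A and VTI1B. Its fold in the authors' deposited table was 3.24, for 7 of 10 background genes, with adjusted p = 0.574. Intra-Golgi transport shared 11 of its 12 genes (91.7%, and 18% of the members), of which 6 were COG subunits and the others COPE, NAPA, NSF, VTI1A and VTI1B. The exception was CUX1. COPII vesicle coating shared 19 of 21 genes (90.5% of that term, 31.1% of the members). Its fold in the authors' deposited table was 1.59 with adjusted p = 0.79, so the COPII term was not past 0.05 after adjustment. It named SEC23A, SEC23IP, SEC24A, SEC24B and SEC24C, the tethers GOLGA2, TRAPPC2, TRAPPC2L and USO1, the SNAREs BET1 and STX5, and the cargo FOLR1 and SERPINA1, besides KLHL12, NAPA, NSF, PREB, TBC1D20 and TMED10. SEC23B was not in it.

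Protein transport shared 21 of 136 genes, 15.4% of that term and 34.4% of the members. Intracellular protein transport shared 16 of 87, or 18.4% and 26.2%. These general terms named different members: 36 were in either, 25 in neither, and ARCN1 alone in both, as were just 4 genes of the 2 whole terms. Thus 6 of the 7 COG genes stood under protein transport and COG3 under the intracellular term, where all 5 SEC23 and SEC24 genes also stood. Golgi organization shared 13 of 30 genes (43.3%) and retrograde transport from Golgi to ER 14 of 30 (46.7%). The retrograde term held the COPI genes, COG3, COG4, NSF, NAPA, ARFGAP2, TMEM115, TMED3, TMED7, TMED9, TMED10 and TMED7-TICAM2. With intra-Golgi transport and COPII coating counted too, these 6 terms named 47 of the 61 genes. Of the 6, only protein transport and intracellular protein transport had an adjusted p under 0.05 in the authors' deposited table. It was 0.112 for Golgi organization, 0.388 for retrograde transport and 0.716 for intra-Golgi transport.

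**Figure D3:**
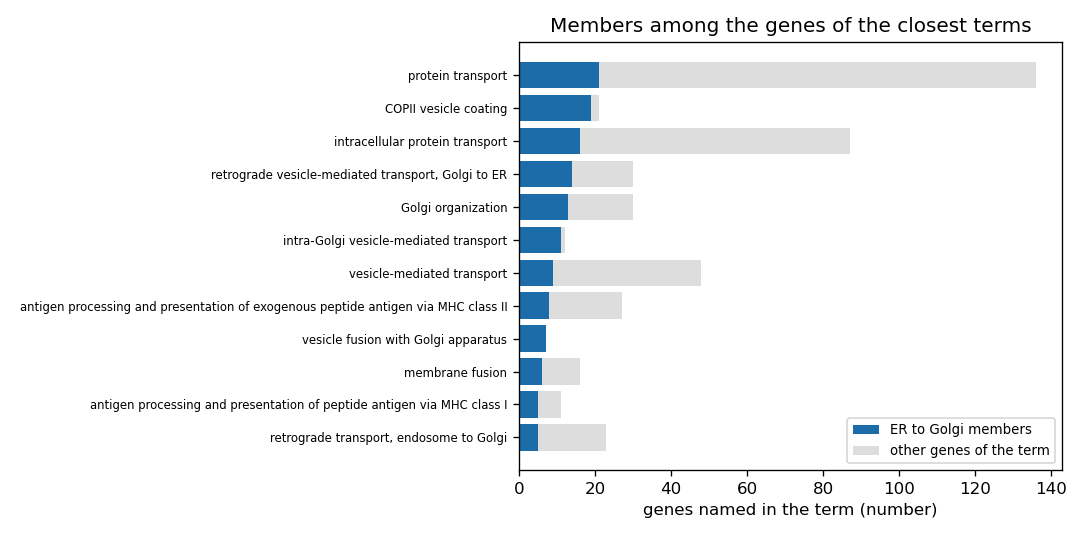
Genes named in the 12 terms that share at least 5 genes with ER to Golgi transport (y axis), split into members and other genes (x axis, number of genes). Protein transport shares the most, 21 of 136, while vesicle fusion with Golgi apparatus holds 7 members and no other gene.

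Of the 14 genes outside those 6 terms, ERGIC1, MIA2 and YIF1B were in no other term, and VAMP7 was in vesicle-mediated transport, vesicle fusion with Golgi apparatus and endocytosis. Members were also named in terms outside vesicle transport. DCTN3, DCTN4, DCTN5 and DYNC2LI1 were named in MHC class II antigen presentation, together with SEC23A, SEC24A, SEC24B and SEC24C, which made 8 of that term's 27 genes (the authors' deposited table gives adjusted p = 0.951). SEC23A, the 3 SEC24 genes and BCAP31 were 5 of 11 genes in MHC class I presentation. DCTN3 was the single member in mitotic nuclear division and in the G2/M transition. SPAST was in exit from mitosis, nuclear envelope reassembly and anterograde axonal transport. HYOU1, PREB and YIF1A were in the IRE1-mediated unfolded protein response, 3 of its 23 genes, and HYOU1 alone in response to endoplasmic reticulum stress. In the authors' deposited table these 2 terms had adjusted p = 0.453 and 0.0761. VTI1A was the single gene shared with autophagy, a term of 54 genes. Cell-cell adhesion, past the threshold in the authors' deposited table at adjusted p = 0.0462, named GOLGA2, STX5, USO1 and YKT6 among 86. FOLR1 was in folic acid transport, SEC24B in neural tube closure and CD55 in viral entry into host cell.

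None of the 61 was named in the HCC1954 table, which holds 30 genes in 37 terms, and 0 of the 191 family genes were. The 2646 genes of the MDA231 table and those 30 make up the 2676 of the series. No gene at all was thus named in both tables, and the absence is not particular to the 61. The HCC1954 table named far fewer genes, and the length of the list behind it is not given here. The 2 lists were not tested against each other.

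Promoter sequence was then read as a property the choice of genes did not use. The RefSeq promoter table (GRCh38.p14, 250 bases before to 50 after the start) matched 53 of the 61 by symbol. Matched on both strands were the unfolded protein response element UPRE (TGACGTGG), bound by XBP1 and ATF6, the cyclic AMP element CRE (TGACGTCA), the ER stress element ERSE and the core ACGTG. UPRE contains the core, and CRE does not. UPRE letters were in 4 of 53 promoters (7.55%), those of HYOU1, SEC23A, SEC24A and STX5, and in all 4 on the strand of the gene. They were in 1.41% of promoters of genes named in the MDA231 table, 0.833% of protein-coding genes and 0.795% of all 27305 promoters. The core was in 26 of 53 (49.1%), against 28.6% of named, 23.7% of protein-coding and 21.6% of all. CRE was in 1 (1.89%), ATL2, against 1.98% of all, and the searched form of ERSE in 0 of 53, against 0.0806%. A match describes letters and is not a site of binding, and these shares were not tested. The 99 background genes of the term that were not listed were not compared as a set. Whether the shares go with the term or with the MDA231 list was therefore not tested.

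The windows that carry the UPRE and CRE letters are shown as the rarer letters that were found, with the match in capitals and up to 10 bases on each side, ending before the transcript start. The HYOU1 match begins 188 bases before the start (chr11:119057376-119057403, minus strand) and overlaps no annotated exon. Its window also holds CCAAT shortly after CGTGG, an arrangement that the searched form of ERSE does not cover. That of SEC24A begins 179 bases before (chr5:134648596-134648623, plus strand), in a window that overlaps an exon of a SAR1B transcript on the opposite strand. That of STX5 begins 16 before (chr11:62832052-62832077, minus strand), in a window that overlaps an exon of an STX5 transcript. That of ATL2 begins 24 before (chr2:38377280-38377307, minus strand), in a window that overlaps an exon of an ATL2 transcript. The SEC23A match begins 4 bases before the start and runs past it, and its window is not shown.
HYOU1: gctggccccgTGACGTGGtccaatccca
SEC24A: tgagagtcggTGACGTGGcggcgaggcc
STX5: tacgtgtaggTGACGTGGccgcttcc
ATL2: cggcggcgttTGACGTCAgtggggagtt
The core ACGTG, counted on both strands, occurred 2 times in the STX5 window and 1 time in those of HYOU1 and SEC24A.

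**Figure D4:**
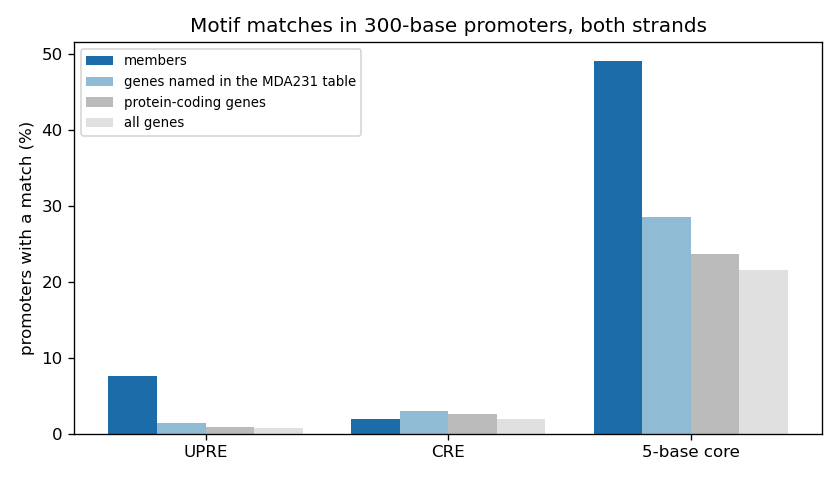
Share of 300-base promoters (y axis, %) with a match on either strand to UPRE, CRE or the 5-base core, for 53 members, genes named in the MDA231 table, protein-coding genes and all genes. The members' bar is higher for UPRE (7.55% against 1.41% of named genes) and for the core (49.1% against 28.6%), and not for CRE. Unlisted genes of the same term were not compared as a set.

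How far the reads of these genes could be told apart from those of other human genes was read from GENCODE release 29. Mouse transcripts were not compared, so sequence shared with the mouse host cells is not covered. The longest coding transcript of each gene was split into all 50-base stretches, and the share also found in another gene's transcript, on either strand, was counted. It was below 1% for 29 genes, with a median of 1.23%. It exceeded 10% for 14 and 50% for 2. TMED7-TICAM2 (chromosome 5, 115578642 to 115626161, minus strand), which joins TMED7 and TICAM2, had 98.4% of its stretches in other genes, so its listing beside TMED7 (23.9%) is uncertain. MPPE1 had 64.4%, shared mainly with GNAL, whose exons overlap it. COG8 followed with 40.7%, shared with PDF and NIP7 among others, then NAPA with 39.4%, SEC24C with 36.8%, NSF with 33.7%, shared with the copy NSFP1, and DCTN5 with 29.8%. Lower shares over 10% were those of COPE (19.8%), VTI1B (18.7%), BET1L (16.8%), HYOU1 (12.8%) and SEC22A (12.3%). TRAPPC2 shared 10.8%, part of it with the copy TRAPPC2B. These genes are uncertain where the counting could not assign such reads. The settings of the counting were not stated.

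**Figure D5:**
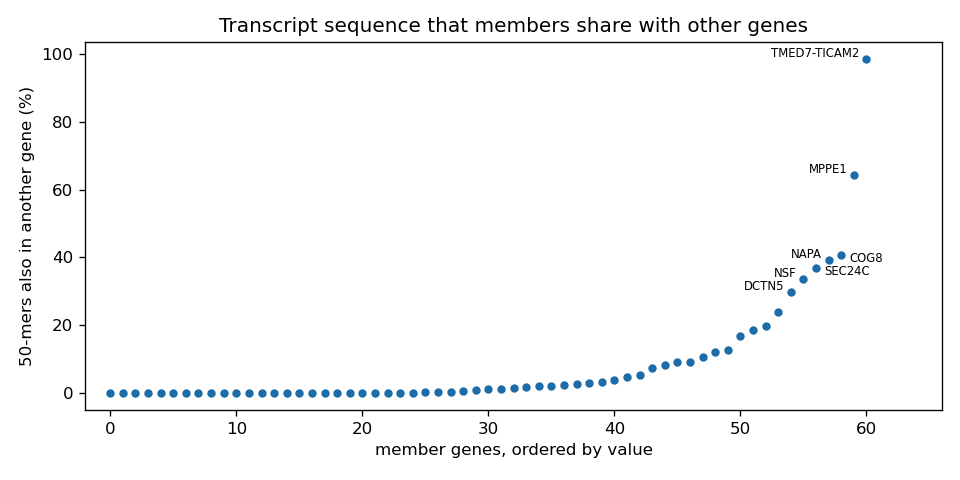
Share of 50-base stretches of each member's longest coding transcript that also occur in another human gene (y axis, %), for the 61 genes in order of that share (x axis). Mouse genes were not compared. Most lie near 0, and TMED7-TICAM2 (98.4%) and MPPE1 (64.4%) stand above 50%.

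Members of the same family with a shared name stem, where compared, were distinct in coding sequence. The 14 pairs compared shared 0 stretches of 50 coding bases. Coding sequence identity over aligned columns was 75.5% for SEC23A and SEC23B, 70% for YIF1A and YIF1B, 68.6% for TMED3 and TMED7 and 68.5% for SEC24A and SEC24B, and at most 61.6% for the other pairs.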

How the data were processed

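Poly(A) RNA of each brain was captured on oligo(dT) beads and immunoprecipitated, per the labels' protocols, with 2.5 µg anti-BrdU antibody per brain. STAR, HTSeq and the builds GRCh38 and GRCm38 are named in the submitters' processing notes. Neither the enrichment tool nor how genes came onto the list is stated there. Per the file headers, the deposited tables give a gene count per term, a percent of submitted genes, a fold (ratio of listed to background share), and unadjusted and adjusted p-values. The deposited false discovery rate is in percent.

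Members, family lists (15, 191 genes) and alternatives were chosen with earlier results of these data known. Every member is named, with detail for those in most terms, overall and per family. Symbols came from Ensembl identifiers. No test was run: overlaps are counts, promoter matches are shares, and intervals are exact binomial at 95% from SciPy 1.17.1. Positions and transcripts are from GENCODE release 29 (GRCh38). Promoters on reference chromosomes were used, 1 per gene. The 50-base stretches, paralog comparison (Biopython 1.88, global alignment, longest coding sequence) and the set of 6 transport terms were chosen after the data were examined. Counting, motif and alignment steps were checked on simulated data. Python 3.11.15 was used.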

Additional observations from a re-analysis of the deposited data

How the results depend on the processing

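The fold of the term stayed at 1.77 with identifiers counted and was 1.74 with 1 gene removed. It was 1.71 without TMED7-TICAM2 and MPPE1, an alternative chosen after the data were examined. Only the count of listed genes was changed and the background counts were kept. These values are therefore arithmetic on the row that chose the genes and do not test its fold. The authors' deposited table also gives its p as 0.0193 after Bonferroni adjustment and its false discovery rate, here as a fraction, as 5.88e-05. With terms of adjusted p under 0.05 alone, 40 of 61 genes were in another term and the median number of other terms was 1 in place of 3, since fewer terms were counted. Over the further term filters 52 to 58 genes were in another term. These filters were applied to the members only. The filtered counts therefore have no share over all named genes, or over other terms, to be set beside. On the strand of the gene alone, 18 of 53 promoters (34%) held the core in place of 26. The shares on that strand were 20.6% for named genes, 17% for protein-coding genes and 15% for all. The protein comparison was not run, as no protein table was used here. No paired analysis was possible because the result comes from no test and no value per library was used. Depth per library is unknown here.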

Other observations

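The 61 genes were spread over 19 chromosomes, with at most 7 on a single chromosome (chromosome 11). Apart from TMED7 and TMED7-TICAM2, which overlap, 3 pairs lay within 1000000 bases of each other. Neither the spread over chromosomes nor the number of pairs was compared with that of other genes. MIA2 and SEC23A, both of COPII exit sites, were 120585 bases apart on chromosome 14, NRBP1 and PREB 293115 bases apart on chromosome 2, and ARCN1 and HYOU1 441156 bases apart on chromosome 11. Median length of the longest coding transcript was 3491 bases, beside 3488 for all genes named in the MDA231 table and 2930 for protein-coding genes. SEC24A overlapped SAR1B, the COPII GTPase, in its exons, with 5.41% of its 50-base stretches shared, and SAR1B was in no listed term. YIF1A likewise overlapped an exon of CNIH2, a cargo receptor gene in no listed term.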
